A study of Canis lupus familiaris with 2 samples.

Results

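A block of 500 kb on dog chromosome 34, from 35400001 to 35900000 in the canFam3 build, was more methylated in MDCK cells given TGF-beta than in untreated MDCK cells. It was described through its fixed windows of 1000 bp, 434 of the 1497941 tested in the genome (0.0290%). A window was used where it held at least 5 CpG sites with 5 or more calls in both libraries. The difference between the libraries chose the block, so every difference inside it is a description without a test. MDCK is an epithelial line from dog kidney. The TGF-beta culture received 5 ng/ml and is labelled mesenchymal. The control culture was untreated, is labelled epithelial and was kept in culture for the same 30 days. Each group had 1 library of bisulfite-converted genomic DNA, so no difference has a replicate check.

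Methylated cytosine withstands bisulfite, whereas cytosine without the mark is read as thymine, and each base read at the cytosine of a CpG is therefore counted as 1 methylated or unmethylated call. In mammals most CpG sites are methylated, by enzymes that copy the pattern onto new DNA and others that add it anew. CpG-dense stretches called CpG islands, many of them at promoters, usually stay unmethylated. In many cultured lines long domains are only partly methylated, and within them isolated CpG sites are usually less methylated than sites with close neighbours. In the control library the block was of this kind. It had no gene names here because no annotation of the build was used.

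The TGF-beta library held 1019766599 calls and the control library 656122583 calls over the genome. The block held 313673 calls of the TGF-beta library and 190592 of the control at 6413 CpG sites, 93.8% of those listed there. The median site had 45 calls in the TGF-beta library and 26 in the control. Of the 500 windows in the block, 66 had too few sites and were not used. Intervals in parentheses are exact 95% binomial (Clopper-Pearson) intervals. They cover counting error only, since copies made by PCR and overlapping mates are not independent molecules.

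The block was largely methylated in treated cells and partly methylated in control cells, measured as methylated calls over all calls. Its level was 85.4% (85.3 to 85.5) in the TGF-beta library and 58.2% (58.0 to 58.4) in the control, a difference of 27.2 percentage points. By the unweighted mean of site levels it was 84.0% in the TGF-beta library and 58.8% in the control. The 500 kb before the block, called the left flank, were at 53.6% (53.4 to 53.8) in the TGF-beta library and 50.4% (50.1 to 50.7) in the control. The 500 kb after it, called the right flank, were at 86.9% (86.7 to 87.0) in the TGF-beta library and 86.0% (85.9 to 86.2) in the control. The block thus lay between DNA that was partly methylated in both libraries and DNA that was highly methylated in both. Its control level was nearer to that of the left flank, and its TGF-beta level was nearer to that of the right flank.

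**Figure D1:**
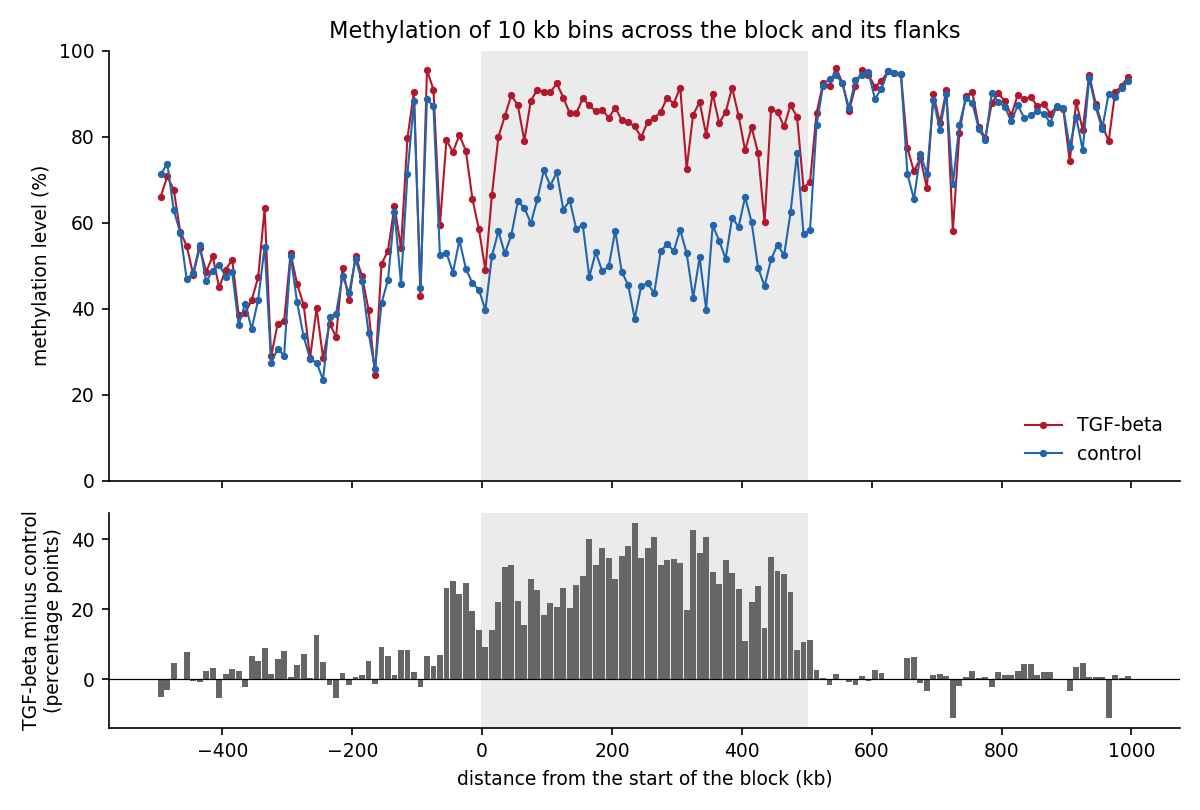
Methylation level of 10 kb bins in the TGF-beta and control libraries (upper panel, %) and their difference (lower panel, percentage points), by distance in kb from the start of the block, which is shaded. Inside the block the bins reach 92.4% in the TGF-beta library and 76.2% in the control, and from 510 kb onward the curves mostly overlap.

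Among all overlapping stretches of 500 kb on the 38 autosomes, taken every 100 kb, the block had the largest difference of 21894, by summed calls and by the mean of site levels. The median stretch differed by 0.472 points, with quartiles at -1.10 and 2.27 points. The next stretch that did not overlap it, on chromosome 27 from 23300001 to 23800000, was at 74.7% in the TGF-beta library and 49.3% in the control. Of the 1174 stretches, the block itself included, whose control level lay within 2 points of the block's, the median level in the TGF-beta library was 59.3%, with quartiles at 57.4% and 61.2%. Only 4 of these 1174 reached 80% in the TGF-beta library: the block, 2 stretches that overlapped it and 1 that did not. The stretches share sequence with their neighbours, so these ranks describe the genome and are not a test.

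Inside the block the difference spread over its whole length but was uneven. All 50 bins of 10 kb were higher in the TGF-beta library, by 8.44 to 44.7 points with a median of 29.7. The largest difference of a bin was at 35630001 to 35640000, at 82.4% in the TGF-beta library and 37.7% in the control. The smallest was at 35880001 to 35890000, at 84.6% in the TGF-beta library and 76.2% in the control. The middle of the block differed most: from 35550001 to 35750000 each 50 kb bin differed by 34.3 to 35.5 points. Those bins were also the least methylated of the block in the control, at 49.4% to 51.6%, and stood at 84.3% to 86.5% in the TGF-beta library. The bins from 35450001 to 35550000 held 22.1 and 23.2 listed CpG sites per kb, the most in the block, and differed by 22.2 and 22.9 points.

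By window, the level had a median of 87.9% (quartiles 81.1% and 91.5%) in the TGF-beta library and 55.4% (quartiles 43.8% and 66.1%) in the control. At least 80% was reached by 333 windows in the TGF-beta library and by 14 in the control. Fewer than 50% of calls were methylated in 19 windows of the TGF-beta library and in 156 of the control. A window was called at a Benjamini-Hochberg adjusted p under 0.05 in Fisher's exact test and a difference of 20 points or more. In the block 334 windows were called higher, where 2.22% of all windows were, and 1 was called lower, where 1.43% of all windows were. Nothing is read from these counts, because the same contrast chose the block. The called windows formed long rows, of which the longest covered 22 adjacent windows from 35726001 to 35748000. That row was at 86.1% (85.4 to 86.7) in the TGF-beta library and 48.3% (47.1 to 49.5) in the control.

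The windows of largest difference were taken among the 276 with at least 10 used sites and 100 calls in each library. Ranking by the difference favours high TGF-beta and low control levels, so nothing is read from how alike their levels were. The window at 35635001 to 35636000 was at 86.0% (82.2 to 89.2) in the TGF-beta library and 29.4% (23.8 to 35.4) in the control. The window at 35440001 to 35441000 was at 87.6% (84.4 to 90.4) in the TGF-beta library and 31.1% (26.1 to 36.4) in the control. The window at 35656001 to 35657000 was at 86.5% in the TGF-beta library and 30.3% in the control. Those at 35571001 and 35519001 differed by 55.2 and 54.9 points. All 5 held between 11 and 16 listed CpG sites, where the median window of the block held 12, and their control levels lay between 24.3% and 31.1%. Across the whole block the widest difference, 72.3 points, was in a window with only 6 used sites, from 35662001 to 35663000.

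The plus and minus strands at a CpG yield separate reads, and they gave close values. In the 268 windows with enough sites on each strand, the plus strand was at 86.8% in the TGF-beta library and 61.1% in the control. The minus strand was at 87.3% in the TGF-beta library and 62.6% in the control. Both strands were higher in the TGF-beta library in 253 of these windows and both were lower in 4. In 0 windows was 1 strand higher and the other lower by at least 20 points, and the same held in both flanks. Both strands were summed to choose the block, so nothing is read from these counts. Within a library the strands of a window differed on average by 5.55 points in the TGF-beta library and 9.78 points in the control.

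The limits of the block differed in sharpness. In domains of 100 kb, the first inside the block on the left differed by 23.6 points and the last on the right by 20.5 points. The domains just outside differed by 7.37 points on the left and 0.706 points on the right. The edge was then set where the running median of 5 bins of 10 kb fell under 10 points. By that measure the higher methylation ran from 35340001 to 35900000, over 560000 bp, so it began 60 kb left of the block and ended at its right limit. With single bins in place of the running median, it began at 35410001 and ended at 35880000, both inside the block. The 10 kb bin just after the right limit of the block, from 35900001 to 35910000, was still at 69.5% in the TGF-beta library and 58.3% in the control. The next bin, from 35910001 to 35920000, was at 85.4% in the TGF-beta library and 82.7% in the control.

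Those 60 kb left of the block were CpG-poor, with 5.47 listed sites per kb against 13.7 in the block. They were at 69.0% (68.0 to 69.9) in the TGF-beta library and 48.5% (47.5 to 49.6) in the control. Of their 18 windows 8 were called higher, and of the other 323 windows of the left flank 11 were, where 2.22% of all windows were. Nothing is read from these counts, because the difference between the libraries set the limits of the 60 kb. Without this stretch the left flank was at 52.9% in the TGF-beta library and 50.5% in the control. The 10 kb bin at 35400001, the first of the block, was a dip in both libraries, at 49.0% in the TGF-beta library and 39.7% in the control.

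The largest step in level was at a different place in each library. At the right limit the 50 kb after were at 88.4% and the 50 kb before at 83.0% in the TGF-beta library, a step of 5.42 points. In the control the 50 kb after were at 86.9% and the 50 kb before at 62.4%, a step of 24.5 points. Of 131 borders placed every 10 kb, the largest step between the 100 kb before and the 100 kb after was at 35250001 in the TGF-beta library and at 35910001 in the control. The TGF-beta step was of 22.7 points, to 65.6% after the border from 42.9% before it. The control step was of 32.9 points, to 91.7% after the border from 58.8% before it. The largest step thus lay left of the block in the TGF-beta library and beside the right limit in the control. The control rose at 35250001 too, from 43.9% in the 50 kb before to 64.5% in the 50 kb after. Those 50 kb bins were at 46.7% and 68.9% in the TGF-beta library. At the left limit of the block, the step over 100 kb was 20.9 points in the TGF-beta library and 4.70 points in the control.

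Single sites were spread over more of the range in the control block than in the treated block. In the TGF-beta library 77.2% of the 6413 sites were at 80% or more, 19.3% lay between 20% and 80%, and 3.54% were under 20%. In the control 35.9% of the same sites were at 80% or more, 49.2% lay between 20% and 80%, and 14.9% were under 20%. The median site was at 93.1% (quartiles 81.8% and 97.0%) in the TGF-beta library and at 62.5% (quartiles 30.8% and 88.2%) in the control. When every site was thinned to an equal number of calls in both libraries, sites between 20% and 80% made up 19.9% in the TGF-beta library and 48.9% in the control.

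**Figure D2:**
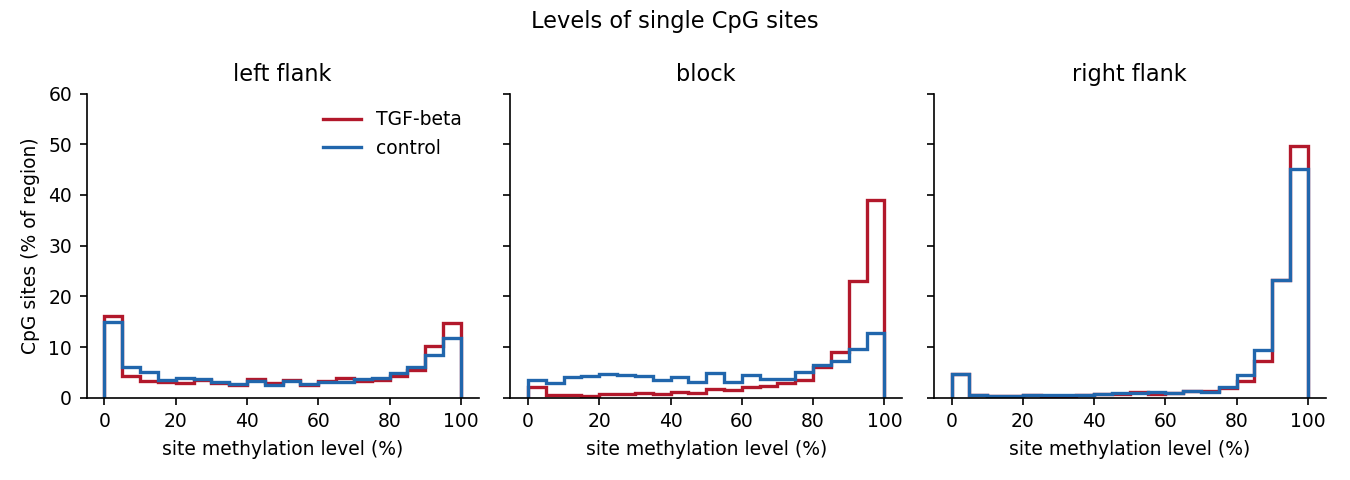
Levels of single CpG sites in steps of 5 points (x axis, %) as a share of the sites of each region (y axis, %), in the left flank, the block and the right flank, with the TGF-beta and control libraries as outlines. In the block the sites at 95% or more make up 38.95% in the TGF-beta library and 12.7% in the control.

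The distributions of the flanks were close to each other in the 2 libraries. In the left flank 38.2% of sites lay between 20% and 80% in the TGF-beta library and 39.3% in the control. Under 20% were 27.0% of them in the TGF-beta library and 29.6% in the control. In the right flank 10.9% lay between 20% and 80% in the TGF-beta library and 11.6% in the control. The control block had more intermediate sites and fewer sites under 20% than either library had in the left flank. The spread of site levels (SD over sites) was 22.3 points in the TGF-beta block and 31.1 points in the control block. Counting error alone would give 6.57 points in the TGF-beta block and 10.8 points in the control block if every site had the mean level, so sites differed beyond it in both libraries.

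Site by site, 50.2% of the block's sites were higher by 20 points or more in the TGF-beta library, against 7.61% of all sites in the genome. In the block 1.25% were lower by as much, against 7.14% of all sites. Of 956 sites under 20% in the control, 297 reached 80% in the TGF-beta library and 173 stayed under 20%. To keep the choice of sites apart from the values read, sites were classed by the plus strand of the control and read on the minus strand. Sites under 20% by that class were at 61.1% in the TGF-beta library and 18.6% in the control, on the minus strand (466 sites). Sites between 20% and 40% were at 79.8% in the TGF-beta library and 31.6% in the control (485 sites). Sites between 40% and 60% were at 86.8% in the TGF-beta library and 50.6% in the control (503 sites). Sites at 80% or more were at 94.9% in the TGF-beta library and 87.2% in the control (1384 sites). The order of the classes was the same in both libraries, but they spanned a narrower range in the TGF-beta library. As a share of the calls still unmethylated in the control, the difference was 52.3% in the lowest class and 60.6% to 73.4% in the others.

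Levels varied with CpG density, over a narrower range in the TGF-beta library than in the control. Windows of 5 to 9 listed sites were at 79.9% (79.5 to 80.3) in the TGF-beta library and 46.7% (46.1 to 47.3) in the control (136 windows). Windows of 10 to 19 were at 84.1% in the TGF-beta library and 55.5% in the control (209 windows). Windows of 20 to 39 were at 88.5% in the TGF-beta library and 65.2% in the control (72 windows). Windows of 40 or more were at 88.7% (88.4 to 89.0) in the TGF-beta library and 78.1% (77.5 to 78.7) in the control (17 windows). They stand in for CpG islands, yet over all autosomes this class was at 65.8% in the TGF-beta library and 65.0% in the control. In the block the difference between the libraries was therefore 33.2, 28.6, 23.3 and 10.6 points from the sparsest class to the densest. As a share of the calls unmethylated in the control, it was 62.3%, 64.3%, 67.0% and 48.4%. On this second scale the first 3 classes lay within 5 points of each other and the densest class stood lower. The densest class pooled unlike windows, as 3 of its 17 had a difference under 5 points. Its share without them was not computed, so the lower value is not read as a trait of dense windows.

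**Figure D3:**
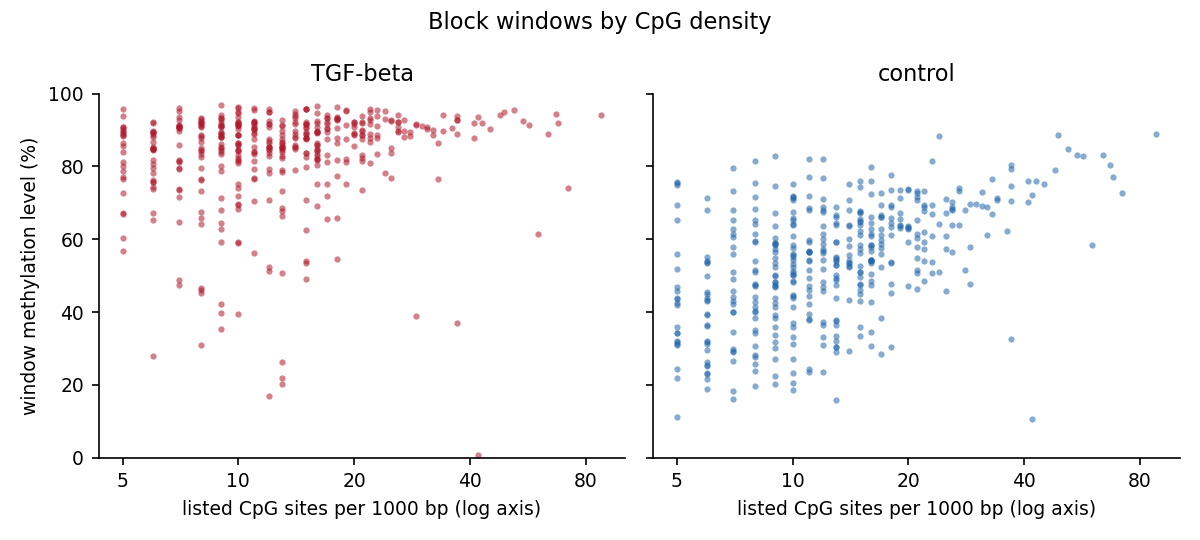
Methylation level (%) of the 434 windows of the block against their listed CpG sites per 1000 bp (log axis), for the TGF-beta library (left) and the control (right), 1 point per window. The medians are 85.1% at 5 to 9 sites and 92.0% at 40 or more in the TGF-beta library, and 44.0% and 77.0% in the control.

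Across the 434 windows of the block, the listed sites and the level were correlated at a Spearman rho of 0.25 in the TGF-beta library and 0.49 in the control. The windows share a library and its depth, so this is a description. Density also went with depth. TGF-beta calls over control calls, as a log2 ratio, were at 0.35 in windows of 5 to 9 sites and 1.24 in windows of 40 or more. The part of depth in the levels was not tested. In the right flank this ratio was 0.08 and 1.03 in the same classes, and the TGF-beta minus control differences there were 0.405 and -0.662 points. In the left flank the ratio was 0.32 and 1.32, and the differences were 3.50 and 7.36 points by summed calls. With every site given equal weight, these left-flank differences were 4.51 and 1.42 points, so their order reversed. Weighted in that way, the right-flank differences were 1.11 and 0.959 points.

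The same held for the distance from a site to its nearest CpG. Sites with a neighbour within 10 bp were at 89.5% in the TGF-beta library and 76.3% in the control (2263 sites). Sites with the nearest CpG at 11 to 30 bp were at 86.2% in the TGF-beta library and 58.8% in the control (2029 sites). At 31 to 100 bp they were at 79.5% in the TGF-beta library and 43.4% in the control (1621 sites). At over 100 and up to 200 bp they were at 78.4% in the TGF-beta library and 38.4% in the control (392 sites). At over 200 bp they were at 77.2% in the TGF-beta library and 39.8% in the control (108 sites). These 5 classes spanned 12.3 points in the TGF-beta block and 37.9 points in the control block. In the left flank they spanned 30.9 points in the TGF-beta library and 33.0 points in the control, and in the right flank 4.48 points in the TGF-beta library and 5.66 points in the control. In the block, sites with no CpG within 30 bp were thus less methylated than the others in both libraries. Their difference between the libraries was 36.2 points at 31 to 100 bp, 39.97 points at over 100 and up to 200 bp and 37.4 points at over 200 bp, against 13.1 points within 10 bp.

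**Figure D4:**
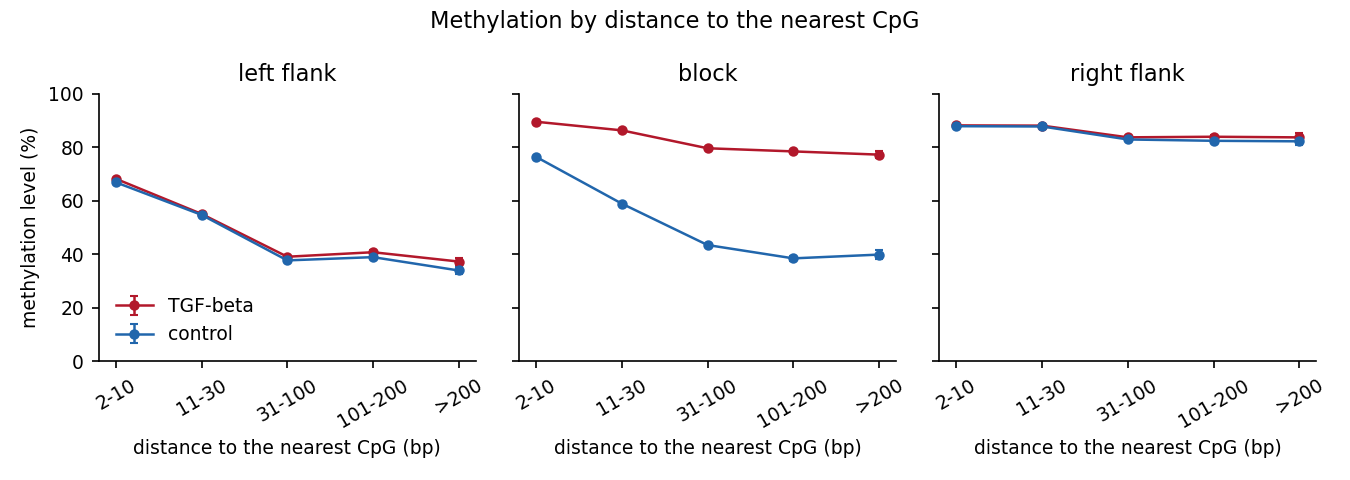
Methylation level (%) of sites classed by the distance in bp to the nearest listed CpG, in the left flank, the block and the right flank, with exact 95% binomial intervals that are mostly smaller than the points. At over 100 and up to 200 bp the block is at 78.4% in the TGF-beta library and 38.4% in the control.

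The 17 CpG-dense windows of the block, with at least 40 listed sites, were mostly methylated in both libraries. In the TGF-beta library 14 of them were above 85%, with a median of 92.0%. In the control their median was 77.0%, with 15 at 70% or more. Over all autosomal windows of this density the median was 76.7% in the TGF-beta library and 75.8% in the control. Higher levels in the TGF-beta library were found in 16 of 17 by summed calls and in 13 by the mean of site levels. Of all windows in the genome, 46.3% had a difference of 0 or less. In this class 1 window was called higher, where 0.409% of all autosomal windows of this density were. Nothing is read from these counts, because the same contrast chose the block. The called window, at 35534001 to 35535000, was at 93.6% (92.7 to 94.4) in the TGF-beta library and 72.1% (69.2 to 74.8) in the control. The densest, at 35510001 to 35511000 with 88 listed sites, was at 94.1% (93.5 to 94.8) in the TGF-beta library and 88.9% (87.5 to 90.2) in the control. The window at 35482001 to 35483000 was at 95.4% in the TGF-beta library and 84.7% in the control. Most of these windows, 13 of 17, lay in the first 250 kb of the block, where none was unmethylated in either library.

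A single CpG-dense window was nearly unmethylated in treated cells, inside a block that was highly methylated in them. At 35809001 to 35810000 the level was 0.859% (0.346 to 1.76) in the TGF-beta library and 10.6% (6.51 to 16.1) in the control. Its 30 used sites lay in 251 bp, from 35809680 to 35809930, with 815 calls in the TGF-beta library and 179 in the control. There the median site had 25 calls with TGF-beta and only 6 without. The 500 bp after these sites were at 82.0% (78.8 to 84.96) in the TGF-beta library and 70.3% (63.6 to 76.3) in the control by summed calls. By the mean of site levels the direction turned, with 62.8% in the TGF-beta library and 66.3% in the control. Before them 1184 bp had no used site, with 9 listed sites and too few calls to place the border of the unmethylated stretch there.

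The window on the other side of that gap was intermediate, with overlapping intervals. At 35808001 to 35809000 the level was 61.3% (58.5 to 64.0) in the TGF-beta library and 58.4% (54.0 to 62.7) in the control. The CpG-dense window at 35710001 to 35711000 was similar in this respect, at 74.1% (72.0 to 76.1) in the TGF-beta library and 72.7% (69.6 to 75.7) in the control. At 35810001 to 35811000 the level was 91.3% in the TGF-beta library and 83.0% in the control by summed calls, but 77.4% and 77.5% by the mean of site levels.

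**Figure D5:**
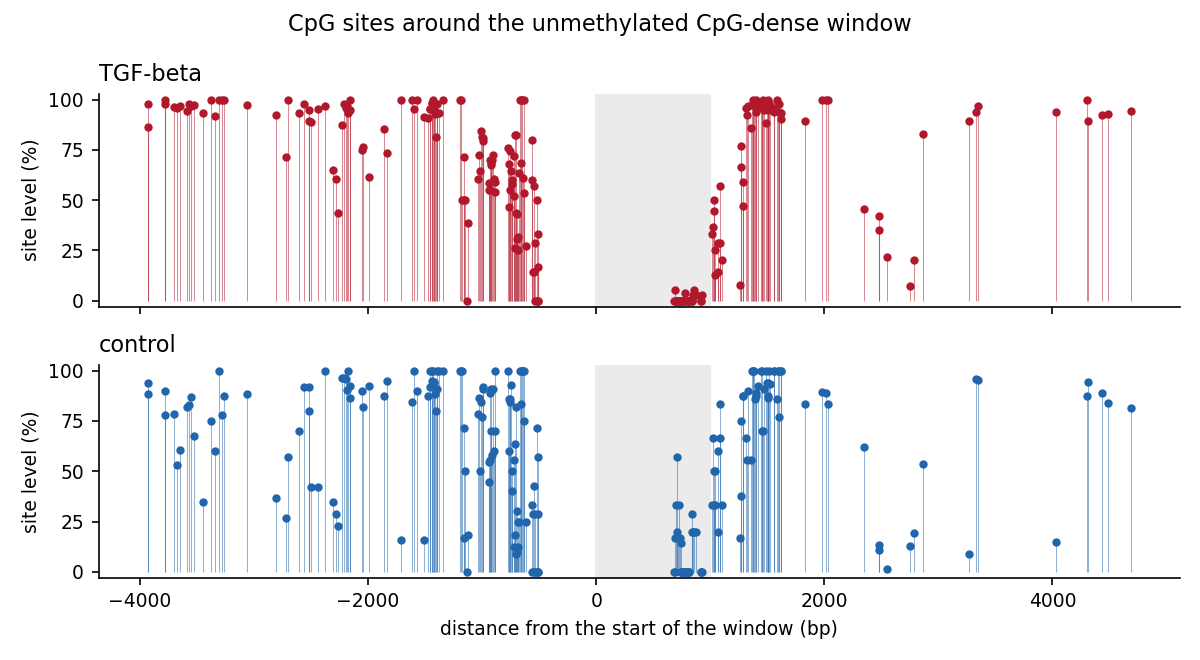
Level of each used CpG site (%) in the TGF-beta (upper) and control (lower) libraries, by distance in bp from the start of the unmethylated CpG-dense window, which is shaded. The 30 sites at the right end of the window average 0.743% in the TGF-beta library and 10.6% in the control, next to a stretch of 1184 bp with no used site.

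Windows without a gain of 5 points were few and of different kinds. A difference under 5 points, negative ones included, was found in 22 of 434 windows, where 77.3% of all windows in the genome had one. A difference of 0 or less was found in 8 of the 434, where 46.3% of all windows had one. Of the 22, 10 were under 40% in the TGF-beta library, 4 lay between 40% and 70%, and 8 were at 70% or more. Only 3 of them were CpG-dense, the ones at 35710001, 35808001 and 35809001 given above, and of the 22 only 2 pairs were adjacent. They were more frequent at the ends of the block: 5 of 14 windows in the first 20 kb, 6 of 18 in the last 20 kb and 11 of 402 between. At the right end some were highly methylated in both libraries, as at 35887001 to 35888000, with 93.1% in the TGF-beta library and 88.2% in the control.

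Others of the 22 were low in both libraries, or lower in the TGF-beta library. The window at 35467001 to 35468000 was at 20.2% (17.2 to 23.5) in the TGF-beta library and 15.9% (12.8 to 19.5) in the control. The window at 35889001 to 35890000 was at 35.5% in the TGF-beta library and 33.8% in the control. The window at 35838001 to 35839000 was the only window called lower, at 17.0% (13.1 to 21.5) in the TGF-beta library and 37.2% (31.5 to 43.2) in the control. That call was lost on each strand alone, with windows shifted or of 2000 bp, and by the mean of site levels, at 23.4% in the TGF-beta library and 36.9% in the control. Next in order came 35451001 to 35452000, at 21.8% (18.2 to 25.8) in the TGF-beta library and 33.4% (28.6 to 38.5) in the control. Its strands went opposite ways, with differences of 9.07 points on the plus strand and -18.3 points on the minus strand. By the mean of site levels it was at 34.8% in the TGF-beta library and 32.1% in the control.

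These low windows held short runs of low sites within methylated DNA. Runs of at least 4 used sites under 30% in the TGF-beta library, with no gap over 300 bp, numbered 14 in the block, each 29 to 357 bp long. The run at 35467322 to 35467678 was at 2.98% (1.71 to 4.79) in the TGF-beta library and 4.11% (2.41 to 6.49) in the control over 8 sites. The run at 35461321 to 35461642 was at 1.59% (0.517 to 3.67) in the TGF-beta library and 28.5% (23.6 to 33.8) in the control over 7 sites. The run at 35838307 to 35838537, inside the window called lower, was at 5.43% (3.07 to 8.81) in the TGF-beta library and 21.8% (16.2 to 28.3) in the control over 9 sites. Since low TGF-beta values chose these runs, nothing is read from the 12 of 14 that were lower in that library.

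By the same definition applied to each library, such runs took up 1.72% of the block's sites in the TGF-beta library (14 runs) and 5.13% in the control (64 runs). In the left flank they took up 11.1% in the TGF-beta library and 14.4% in the control, and in the right flank 4.27% and 4.21%. When runs were chosen on the plus strand of the TGF-beta library and read on the minus strand, 3 were found in the block. Their 28 sites were at 16.0% in the TGF-beta library and 25.7% in the control. When they were chosen on the plus strand of the control, 15 were found, and their 76 sites were at 55.2% in the TGF-beta library and 17.3% in the control on the minus strand.

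Windows that were under 20% in the control differed in how far they went. Among them the one at 35662001 to 35663000 was at 90.7% (86.1 to 94.2) in the TGF-beta library and 18.4% (13.0 to 24.9) in the control, over 6 sites. The one at 35871001 to 35872000 was at 67.2% (58.1 to 75.4) in the TGF-beta library and 11.3% (6.16 to 18.6) in the control, over 5 sites. The one at 35834001 to 35835000 was at 39.4% (36.2 to 42.7) in the TGF-beta library and 18.7% (15.1 to 22.6) in the control, over 10 sites. Of the 9 windows under 20% in either library, 6 were called higher, 1 was called lower and 2 were not called. Of all windows in the genome, 2.22% were called higher and 1.43% lower. Nothing is read from the 9, because a low level in a compared library chose them, inside a block chosen by the same contrast. The order of the windows was partly kept: levels in the 2 libraries were correlated across the 434 windows with a Pearson r of 0.56 and a Spearman rho of 0.59. In the left flank the same values were 0.90 and 0.88 over 341 windows, and in the right flank 0.95 and 0.83 over 444.

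Summed depth, which did not choose the block, was somewhat higher in the TGF-beta library there, relative to the control, than in the flanks. Over the block, TGF-beta calls were 1.64 times the control calls, against 1.48 times in the left flank and 1.44 times in the right flank. Relative to the median 10 kb bin of chromosome 34 the log2 ratio was 0.32 in the block, 0.18 in the left flank and 0.13 in the right flank. In windows of 5 to 9 listed sites only, the ratio of calls was 1.28 in the block, 1.25 in the left flank and 1.06 in the right flank. From the sparsest density class to the densest, the log2 ratio in the block was 0.35, 0.60, 0.94 and 1.24. Over all autosomal windows it was 0.30, 0.62, 0.94 and 1.16, so windows of like CpG density had similar ratios in the block and the genome. Across the 50 bins of the block, the log2 ratio and the difference in methylation had a Pearson r of -0.27. CpG density went with both: across the 434 windows its Spearman rho was 0.39 with the depth ratio and -0.40 with the difference. Depth and density therefore cannot be told apart in that value, and the part of depth was not tested.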

How the data were processed

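Whole-genome bisulfite sequencing gave 1 library for each of 2 cultures, grouped by the labelled agent. The deposited values are counts: for each CpG cytosine the authors' files list methylated and unmethylated calls, each strand on its own line. Per the submitters' processing notes, Bismark, Bowtie 0.12.8 and canFam3 were used. SOAPaligner2 stands in the labels' protocol instead. How duplicates and mate overlaps were handled is not given in the sources used here, and if they were kept the intervals are too narrow. The column taken as methylated calls held 0.329% of mitochondrial calls in the TGF-beta library and 0.211% in the control.

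Adjacent cytosines of the union of both files were joined into 25888236 sites, 90.6% with both strands. Runs of odd length, with 0.00656% of the calls, and 1 line per file without a chromosome were left out. Sites needed 5 calls in both libraries and windows 5 sites. A level is methylated calls over all calls. Windows of 1000 bp were tested over the whole genome by Fisher's exact test (two-sided) on the sums of calls, with Benjamini-Hochberg adjustment. That test compares these 2 libraries, not the conditions. Simulated windows with known differences were used to check the code. CpG density counts all listed sites of a window.

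The members and the descriptions were chosen with earlier results of these data known. Named windows are the 5 with the largest and the 5 with the smallest difference among those with 10 sites and 100 calls in each library, CpG-dense windows and windows under 20%. Windows without a gain, runs of low sites, steps and the nearest-CpG classes were picked after values were seen. No annotation of canFam3 was used, so no genes or sequences are given. The software was matplotlib 3.10.9, scipy 1.17.1, numpy 2.4.6 and pandas 2.3.3 under Python 3.11.15. Fisher's exact test used numba 0.67.0, and reading used pyarrow 21.0.0.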

Additional observations from a re-analysis of the deposited data

How the results depend on the processing

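Of 60 alternatives, 33 left the value within its counting interval, within 10 kb for an edge or within 1.5 times for a count. Among those for a signed value, 0 reversed its direction. Counts, edges and the mean strand differences, which have no sign, could not reverse. The block's difference was 26.9 points on the plus strand, 25.2 points as a mean over sites and 26.8 points over tested windows only. The left flank differed by 2.79 points with 10 calls per site, 2.76 from plus-strand calls and 2.71 from minus-strand calls. The right flank differed by 1.08 points on the minus strand. Windows called higher numbered 221 on the plus strand, of 312 tested, where 2.22% of all windows in the genome were. With windows of 2000 bp they numbered 202 of 247, where 2.10% of all were. With 10 sites per window they numbered 204 of 276, where 1.25% of all were. These counts fell with the windows tested. The 1 window called lower was lost, with a count of 0, on each strand alone, with shifted windows, with windows of 2000 bp and by the mean of site levels, and 2 were called at 10 points. Windows without a gain numbered 10 with windows of 2000 bp and 39 at under 10 points. The left edge was 35320001 at 5 points and 35410001 with no running median, and the right edge was 35880000 with no running median. The gap between the library differences of the sparsest and the densest windows, 22.6 points, was 21.1 with 10 calls per site, 17.8 and 24.5 from plus-strand and minus-strand calls and 25.95 by the mean of site levels. The share of sites between 20% and 80% fell by 29.9 points in the TGF-beta block, and by the plus strand fell by 27.6 points. The log2 depth ratio of the block relative to the median 10 kb bin of chromosome 34, 0.32, was 0.16 when sites of windows with 5 to 9 listed sites alone were used for both. The cause of these shifts was not tested. No paired analysis was possible because each group has 1 library. Depth limits the CpG-dense window at 35809001, with 179 control calls, and no replicate shows how much of any difference lies between cultures.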
